A study of Mus musculus with 6 samples.

Results

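Tuft cells are chemosensory epithelial cells, and 10 genes that mark them or carry out their functions were followed in thymic stroma. The members were chosen by gene symbol, and each of the 10 had an entry of its own among 22513 entries in the table. The 6 libraries came from fetal thymic lobes on the C57BL/6 background, all kept for 4 days in organ culture (FTOC) with 2′-deoxyguanosine (2-DG), which depletes haematopoietic cells. WT and *Jmjd6*-/- lobes gave 1 unstimulated library each, and 2 libraries each after 4 days with RANKL, the cytokine that drives maturation of medullary thymic epithelial cells (mTECs). *Jmjd6*-/- embryos came from heterozygous parents and carry the mutation in all their cells, not in epithelium alone. The repeated libraries are called technical duplicates in the deposited description and samples in the study's methods. Whether they came from separate cultures is not stated, so the p-values given measure a spread between these libraries that may be technical. In fits that take 1 RANKL difference for both genotypes, that spread also includes unequal responses of the genotypes to RANKL. Those responses each rest on 1 unstimulated library.

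Tuft cells were first described in airway and gut. They detect chemicals with the signalling machinery of taste cells and release IL-25, leukotrienes and prostaglandins, and cells with this program are also found in the thymic medulla, where they depend on the transcription factor Pou2f3. In the taste cascade, receptors act through the G protein subunits Gnat3 and Gng13 on the phospholipase Plcb2, and the calcium released opens the channel Trpm5. The libraries are of whole stroma, in which fewer cells of a type and less RNA per cell cannot be told apart.

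Depth estimated from the steps between low values was 15600000 to 30200000 fragments per library. Only 29.1% to 35.7% of the low values used lay within 0.1 of a whole fragment number. Part of these would lie as near a whole number at any depth, so the signal is weak. The depth, and fragment numbers and intervals built on it, are thus approximate. Levels are given as FPKM, which scales fragments by transcript length and library size. *Jmjd6* was at 25.9 to 32.5 FPKM in WT and 1.32 to 1.96 FPKM in *Jmjd6*-/- libraries, which fits the labels. *Aire*, a defining gene of mature mTECs, was below 0.5 FPKM in both unstimulated libraries and above 67 FPKM in all 4 stimulated ones. The WT RANKL libraries lay further apart (median absolute log2 difference 0.276) than the *Jmjd6*-/- RANKL libraries (0.0767).

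The sequences before the start sites of *Gng13* and *Avil* are shown, since among the 10 *Gng13* had the largest difference with RANKL and *Avil* the largest between genotypes under RANKL. Each is the 250 bases upstream of a RefSeq start on GRCm38.p6, 5′ to 3′ on the plus strand, at chr17:25716922-25717171 for *Gng13* and chr10:127000459-127000708 for *Avil*. Capitals mark matches, on either strand, to a loose NF-κB motif of GGG, 5 free bases and CC.
Gng13: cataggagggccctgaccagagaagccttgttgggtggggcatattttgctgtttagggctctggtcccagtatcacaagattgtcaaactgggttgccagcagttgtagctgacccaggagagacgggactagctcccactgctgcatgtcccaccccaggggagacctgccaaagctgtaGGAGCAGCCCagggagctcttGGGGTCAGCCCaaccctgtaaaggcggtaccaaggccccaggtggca
Avil: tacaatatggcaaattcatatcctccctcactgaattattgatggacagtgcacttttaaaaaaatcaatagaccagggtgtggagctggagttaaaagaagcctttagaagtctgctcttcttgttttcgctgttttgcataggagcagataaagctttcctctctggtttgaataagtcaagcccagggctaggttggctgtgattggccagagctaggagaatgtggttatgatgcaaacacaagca
Windows were found for 7 of the 10 members, 9 windows in all, and *Pou2f3*, *Il25* and *Alox5ap* were not matched. The loose NF-κB letters were present in 3 of the 9 windows, those of *Gng13* and *Trpm5*, and in 45.8% of all 32851 windows. The POU octamer (ATGC followed by AAAT) was in 0 of the 9, also with its base after ATGC left free, against 1.60% and 2.86% of all windows. The AP-1 motif TGANTCA was in 1 window, of *Dclk1*, and in 6.75% of all. A match describes letters in a short window and is not a binding site.

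All 10 genes were above 0 in every library, at low levels. In stimulated WT stroma their mean FPKM, highest first, was *Gng13* (10.7), *Alox5ap* (4.10), *Pou2f3* (1.77), *Dclk1* (1.67), *Gnat3* (1.47), *Ltc4s* (1.38), *Avil* (1.24), *Plcb2* (0.813), *Trpm5* (0.615) and *Il25* (0.363). Libraries of neighbours in this order overlapped from *Pou2f3* through *Avil*. *Il25* was lowest in each library, and its values correspond to an estimated 3 to 9 fragments. In stimulated *Jmjd6*-/- stroma *Gng13* (9.13 FPKM) again led, and *Alox5ap* (3.12), *Avil* (3.11), *Gnat3* (2.34) and *Pou2f3* (2.34) followed, each overlapping the next.

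**Figure D1:**
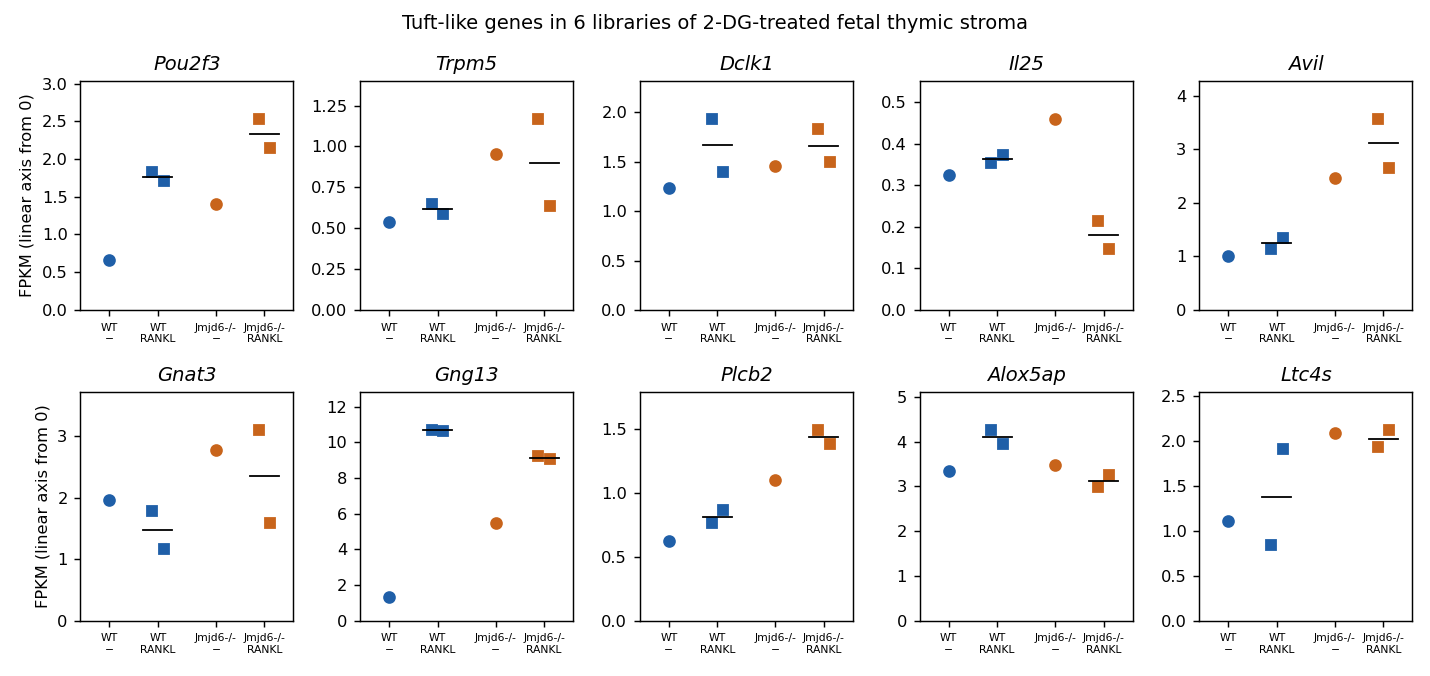
FPKM of the 10 tuft-like genes in WT and Jmjd6-/- stroma without (−) and with RANKL, on linear axes from 0, with 1 point per library (circles unstimulated, squares RANKL, WT blue, Jmjd6-/- orange) and lines at the means of 2 libraries. Pou2f3 and Gng13 lie above both unstimulated libraries in all 4 RANKL libraries. Avil, Plcb2 and Ltc4s lie higher in all 3 Jmjd6-/- libraries than in any WT library. For Ltc4s the nearest values are 1.91 FPKM in WT and 1.93 FPKM in Jmjd6-/- stroma.

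The response to RANKL was examined over both genotypes. *Pou2f3* and *Gng13* rose, none of the 10 fell, and 8 did not pass the test (limma, adjusted p under 0.05). Among all 15894 genes tested, 10.5% rose and 4.11% fell. At an unadjusted p under 0.05 the same 2 members passed, against 29.7% of all genes in either direction. The median log2 difference was 0.18 over the members and -0.02 over all genes.

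*Pou2f3* encodes the POU domain factor on which tuft cells depend (XLOC_021044, chr9:43123939-43205755 of mm10, minus strand). It was at 0.664 FPKM in unstimulated WT, 1.83 and 1.70 in WT with RANKL, 1.40 in unstimulated *Jmjd6*-/-, and 2.53 and 2.15 FPKM in *Jmjd6*-/- with RANKL. All 4 stimulated libraries exceeded both unstimulated ones, as in 18.9% of all genes, while no member had the opposite order, seen in 18.5%. The log2 difference was 0.99 (SE 0.21, adjusted p = 0.0243 from limma). It kept its size but not its call without *Jmjd6*-/- RANKL replicate 1 (0.99, adjusted p = 0.0983 from limma) or replicate 2 (1.08, adjusted p = 0.0556).

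*Gng13* encodes a G protein γ subunit of taste cells (XLOC_008048, chr17:25717172-25727415 of mm10, plus strand). It was at 1.30 FPKM in unstimulated WT, 10.7 and 10.7 in WT with RANKL, 5.50 in unstimulated *Jmjd6*-/-, and 9.21 and 9.05 FPKM in *Jmjd6*-/- with RANKL. The stimulated libraries of both genotypes were close together, and the unstimulated WT library stood lowest. The log2 difference was 1.84 (SE 0.44, adjusted p = 0.0382 from limma). This fit takes 1 RANKL difference for both genotypes, so the SE also holds their unequal responses. The call was lost without WT RANKL replicate 2 (adjusted p = 0.0546 from limma), *Jmjd6*-/- RANKL replicate 1 (0.0598) or *Jmjd6*-/- RANKL replicate 2 (0.0549). The listed locus also spans *Chtf18*, a gene on the other strand whose 3′ end overlaps that of *Gng13*. *Chtf18* was at 1.66 FPKM in unstimulated WT, 3.94 and 2.73 in WT with RANKL, 1.73 in unstimulated *Jmjd6*-/-, and 2.44 and 2.56 FPKM in *Jmjd6*-/- with RANKL. Library preparation as described keeps no strand, so reads of the overlap are uncertain in origin.

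The other genes of the taste cascade did not pass. *Gnat3*, encoding the α subunit gustducin (chr5:17962570-18019668, plus strand), was at 1.96 FPKM in unstimulated WT, 1.78 and 1.16 in WT with RANKL, 2.77 in unstimulated *Jmjd6*-/-, and 3.10 and 1.59 FPKM in *Jmjd6*-/- with RANKL, a log2 difference of -0.36 (95% interval -1.08 to 0.36). *Trpm5*, the channel gene (chr7:143071529-143094642, minus strand), was at 0.537 FPKM in unstimulated WT, 0.645 and 0.584 in WT with RANKL, 0.954 in unstimulated *Jmjd6*-/-, and 1.17 and 0.635 FPKM in *Jmjd6*-/- with RANKL, a difference of 0.02 (-0.66 to 0.70). In both genes the stimulated *Jmjd6*-/- libraries lay on either side of the unstimulated one. The difference of *Plcb2* was 0.35 (-0.11 to 0.81).

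Among structural and effector genes, *Dclk1* (chr3:55242526-55539068, plus strand), a kinase gene that marks tuft cells and is also expressed by neurons, lay within 1.24 to 1.93 FPKM in all libraries, with a log2 difference of 0.28 (95% interval -0.22 to 0.78). For *Avil*, encoding the actin regulator advillin, it was 0.30 (-0.16 to 0.75). *Alox5ap* and *Ltc4s* serve leukotriene synthesis, and their differences were 0.07 (-0.31 to 0.45) and 0.07 (-0.67 to 0.82). For *Il25*, the cytokine gene, it was -0.44 (-1.27 to 0.38).

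**Figure D2:**
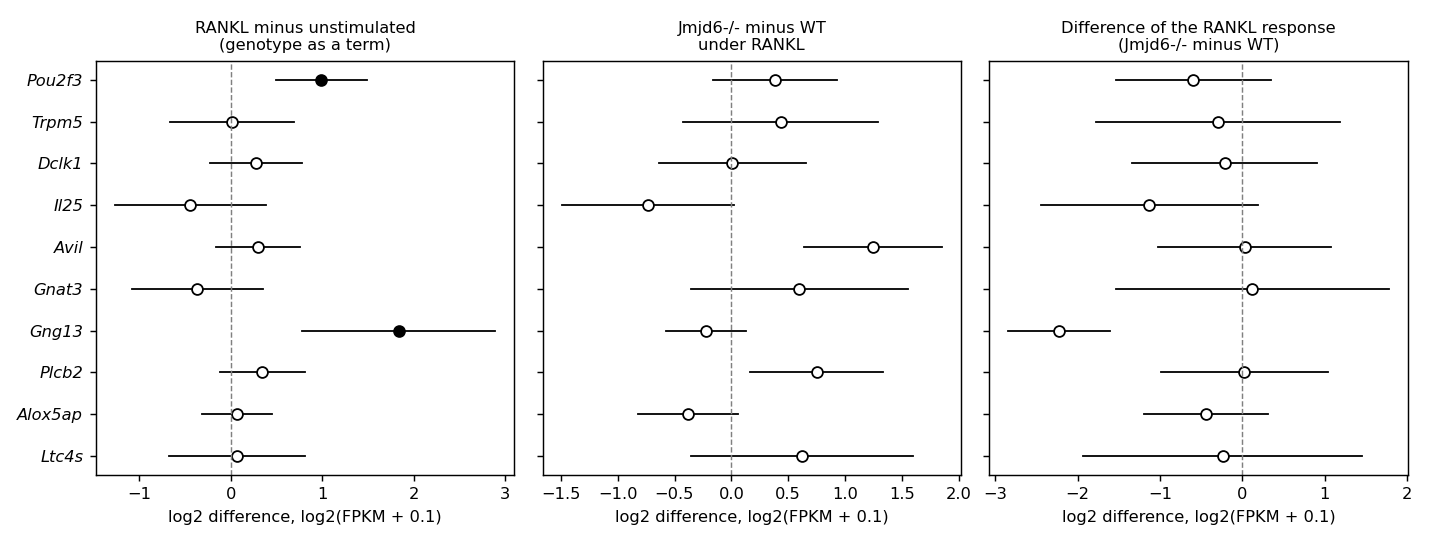
Log2 differences of the 10 genes on the log2(FPKM + 0.1) scale from limma, with 95% intervals, for RANKL against unstimulated, Jmjd6-/- against WT under RANKL, and the difference in RANKL response between genotypes. Among the RANKL differences, those of Pou2f3 (0.99) and Gng13 (1.84) passed, and none passed in the other comparisons shown.

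Each genotype had 1 unstimulated library, so responses within a genotype are given as a description, and both use it as control. In WT, both RANKL libraries were above the unstimulated one in 8 members and below it in 1 (*Gnat3*), against 34.6% and 36% of all genes. In *Jmjd6*-/- stroma these counts were 5 and 2, against 40.8% and 44.6%. *Gng13* differed by 2.95 on the log2 scale in WT and 0.72 in *Jmjd6*-/- stroma, and *Pou2f3* by 1.29 and 0.69. The difference in response was -2.23 (SE 0.25, adjusted p = 0.702 from limma) for *Gng13*, and did not pass. By limma 0 of all genes passed for this difference, against 4.18% at an unadjusted p under 0.05, of which *Gng13* was the only member.

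*Il25* and *Alox5ap* had opposite orders in the genotypes, with both stimulated libraries above the unstimulated one in WT and below it in *Jmjd6*-/- stroma, as in 4.28% of all genes. *Il25* (chr14:54932695-54935836, plus strand) was at 0.325 FPKM in unstimulated WT, 0.353 and 0.373 in WT with RANKL, 0.459 in unstimulated *Jmjd6*-/-, and 0.213 and 0.147 FPKM in *Jmjd6*-/- with RANKL. By counting error alone the 95% exact Poisson interval was 0.113 to 0.813 FPKM in WT RANKL replicate 2 and 0.0345 to 0.489 FPKM in *Jmjd6*-/- RANKL replicate 2, and these overlapped. Both *Jmjd6*-/- RANKL libraries were below both WT ones, and the genotypes differed there by -0.73 on the log2 scale (SE 0.30, 95% interval -1.49 to 0.02, adjusted p = 0.281 by limma), which did not pass. *Alox5ap* (chr5:149265058-149288047, plus strand) was at 3.34 FPKM in unstimulated WT, 4.26 and 3.94 in WT with RANKL, 3.48 in unstimulated *Jmjd6*-/-, and 2.99 and 3.26 FPKM in *Jmjd6*-/- with RANKL. The difference in response was -1.13 (SE 0.52, 95% interval -2.45 to 0.18) for *Il25* and -0.44 (SE 0.30, -1.20 to 0.31) for *Alox5ap*, and neither passed.

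**Figure D3:**
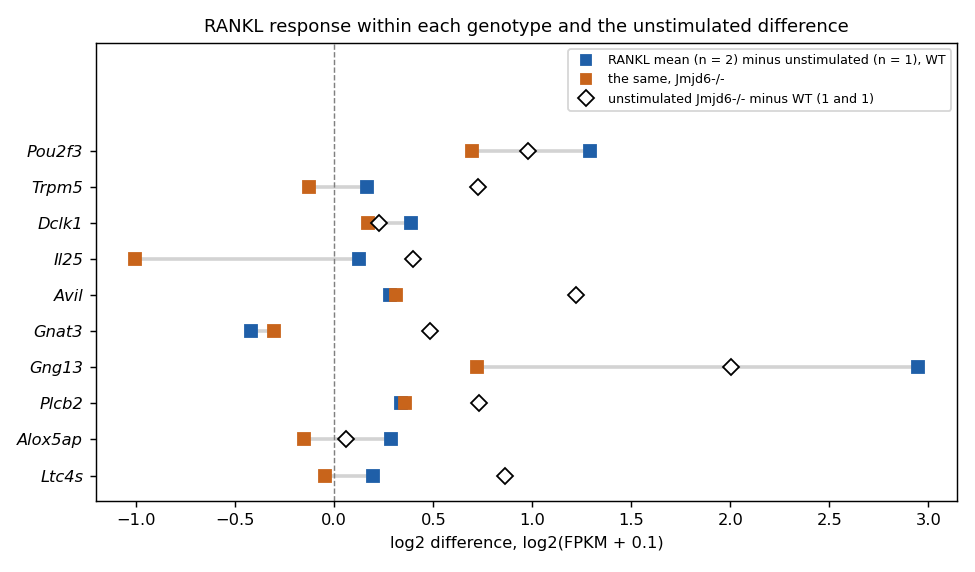
Log2 differences on the log2(FPKM + 0.1) scale for the 10 genes: the mean of 2 RANKL libraries minus the 1 unstimulated library in WT and in Jmjd6-/- stroma, and unstimulated Jmjd6-/- minus WT. Gng13 shows the widest gap between genotypes (2.95 and 0.72), and all 10 unstimulated differences lie above 0.

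The genotypes were then compared under RANKL. None of the 10 members passed in either direction, against 0.516% of all genes higher and 1.82% lower in *Jmjd6*-/- stroma. *Avil* and *Plcb2* had an unadjusted p under 0.05 by limma, against 18.8% of all genes. The median log2 ratio was 0.41 over the members and 0.01 over all genes. Both *Jmjd6*-/- libraries were above both WT libraries in 4 members (*Pou2f3*, *Avil*, *Plcb2* and *Ltc4s*) and below in 3 (*Il25*, *Gng13* and *Alox5ap*), orders seen in 24.5% and 26.2% of all genes.

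*Avil* (XLOC_001710, chr10:127000709-127020994 of mm10, plus strand) had the largest ratio. It was at 1.00 FPKM in unstimulated WT, 1.15 and 1.34 in WT with RANKL, 2.47 in unstimulated *Jmjd6*-/-, and 3.56 and 2.66 FPKM in *Jmjd6*-/- with RANKL. All 3 *Jmjd6*-/- values exceeded all 3 WT values. Under RANKL the log2 ratio was 1.25 (SE 0.24, adjusted p = 0.0669 from limma), short of the threshold. It was 1.35 without WT RANKL replicate 2, which leaves a single WT RANKL library. The 3′ end of *Avil* overlaps that of *Tsfm* on the other strand, with the same doubt about strand.

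*Plcb2*, encoding the phospholipase of the taste cascade (chr2:118707517-118728438, minus strand), was at 0.622 FPKM in unstimulated WT, 0.764 and 0.862 in WT with RANKL, 1.10 in unstimulated *Jmjd6*-/-, and 1.49 and 1.38 FPKM in *Jmjd6*-/- with RANKL, and its log2 ratio under RANKL was 0.75 (SE 0.23, adjusted p = 0.172 from limma). *Ltc4s*, encoding leukotriene C4 synthase (chr11:50236472-50238471, minus strand), was at 1.10 FPKM in unstimulated WT, 0.845 and 1.91 in WT with RANKL, 2.09 in unstimulated *Jmjd6*-/-, and 1.93 and 2.12 FPKM in *Jmjd6*-/- with RANKL. The WT RANKL libraries of *Ltc4s* lay far apart, and its ratio was 0.62 (SE 0.39, adjusted p = 0.482 from limma). Without WT RANKL replicate 2, the one near the *Jmjd6*-/- values, the ratio was 1.17. That leaves a single WT RANKL library, so no call is drawn from it. The ratio of *Dclk1* was 0.01 (95% interval -0.64 to 0.66).

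In the unstimulated pair all 10 members were higher in *Jmjd6*-/- stroma and 0 were lower, against 49.5% and 49.1% of all genes. With 0.1 added, 6 (*Pou2f3*, *Trpm5*, *Avil*, *Gng13*, *Plcb2* and *Ltc4s*) were over 1.5-fold higher, against 7.02% of all genes, and 0 were over 1.5-fold lower, against 8.25%. Among the 6106 genes with a mean between those of the lowest and highest member (0.311 to 7.74 FPKM), 50.1% were higher and 11.3% over 1.5-fold higher. The counting intervals of *Gng13* were 0.817 to 1.90 FPKM in WT and 4.08 to 7.13 FPKM in *Jmjd6*-/- stroma, and those of *Avil* 0.808 to 1.22 and 2.05 to 2.95, without overlap. Those of *Ltc4s* overlapped (0.653 to 1.80 and 1.17 to 3.32 FPKM), as did those of *Dclk1*, *Il25*, *Gnat3* and *Alox5ap*. The intervals of *Alox5ap* were 2.78 to 4.00 FPKM in WT and 2.69 to 4.44 FPKM in *Jmjd6*-/- stroma. *Pou2f3*, *Trpm5* and *Plcb2* had intervals without overlap. With 1 library a side there was no replicate check.

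In a fit over all 6 libraries, added after the values were seen, *Avil* was higher in *Jmjd6*-/- stroma, by 1.24 (SE 0.18, adjusted p = 0.0162 from limma), and the other 9 members did not pass. Of all genes, 2.05% were higher and 3.38% lower. Unadjusted, *Pou2f3*, *Plcb2* and *Ltc4s* also had a p under 0.05, against 22.1% of all genes. The ratio of *Plcb2* was 0.75 (SE 0.18, adjusted p = 0.0688 from limma). In *Avil*, *Plcb2* and *Ltc4s* all *Jmjd6*-/- libraries exceeded all WT libraries, as in 9.14% of all genes. No member had the opposite order, also at 9.14%. For *Ltc4s* the nearest values were 1.91 FPKM in WT and 1.93 FPKM in *Jmjd6*-/- stroma, at an estimated 12 to 25 fragments per library. The call of *Avil* was lost without *Jmjd6*-/- RANKL replicate 1 (adjusted p = 0.116 from limma) or replicate 2 (0.0760).

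The study's range rule asks for a highest value over 3 times the lowest with 0.1 added. *Gng13* (7.73), *Pou2f3* (3.44) and *Avil* (3.32) met it, against 18.5% of the 15894 genes tested here. *Gnat3* (2.55) and *Ltc4s* (2.35) came next. The study then also required a significant association with RANKL treatment or *Jmjd6* expression, a step not repeated here. Summed over the members the level was 12.1 FPKM in unstimulated WT, 24.2 and 23.9 in WT with RANKL, 21.7 in unstimulated *Jmjd6*-/-, and 28.0 and 24.5 FPKM in *Jmjd6*-/- with RANKL. The unstimulated WT library had the lowest sum. Without *Gng13*, whose reads are uncertain, the other 9 summed to 10.8 FPKM in unstimulated WT and 13.6 and 13.3 in WT with RANKL. In *Jmjd6*-/- stroma they summed to 16.2 FPKM unstimulated and 18.8 and 15.4 FPKM with RANKL. Most of the gap between unstimulated and stimulated WT thus came from *Gng13*. *Avil*, with the same doubt about strand, stayed in this sum.

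Further genes linked to tuft cells or their pathways were read from lists. Not all of them are specific to tuft cells, and in whole stroma their changes cannot be assigned to these cells. Of 20 chemosensory genes 11 were tested, and 1 fell with RANKL, against 4.11% of all genes. This was *Itpr3*, the calcium release channel downstream of Plcb2, lower by 0.64 on the log2 scale (SE 0.12, adjusted p = 0.0163 from limma). It did not pass without *Jmjd6*-/- RANKL replicate 1 (adjusted p = 0.0766) or 2 (0.0674). None rose, against 10.5% of all genes. Between genotypes under RANKL none passed, against 0.516% of all genes higher and 1.82% lower. The bitter receptor genes found were low, the highest value being 0.514 FPKM for *Tas2r118* in unstimulated *Jmjd6*-/- stroma.

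Of 15 eicosanoid genes, 4 rose with RANKL and none fell, against 10.5% and 4.11% of all genes. *Ptgs2*, the inducible cyclooxygenase gene, was at 0.381 FPKM in unstimulated WT, 20.0 and 18.2 in WT with RANKL, 0.609 in unstimulated *Jmjd6*-/-, and 20.3 and 15.7 FPKM in *Jmjd6*-/- with RANKL, a log2 difference of 4.99 (SE 0.19, adjusted p = 3.99e-05 from limma). *Ptges*, which makes prostaglandin E2, rose by 1.78 and *Pla2g4a*, which frees arachidonic acid, by 1.17. *Alox15*, a lipoxygenase gene, was at 0.184 FPKM in unstimulated WT, 4.56 and 5.11 in WT with RANKL, 0.0323 in unstimulated *Jmjd6*-/-, and 1.58 and 1.23 FPKM in *Jmjd6*-/- with RANKL, and rose by 3.81. Between genotypes under RANKL 2 of the 15 were lower and none higher, against 1.82% and 0.516% of all genes. *Alox15* differed by -1.72 (SE 0.25, adjusted p = 0.0406 from limma) and was lower in *Jmjd6*-/- stroma, as was *Ggt5*, whose product cleaves leukotriene C4, at -0.91 (SE 0.15, adjusted p = 0.0497 from limma). Without *Jmjd6*-/- RANKL replicate 1 or 2 their adjusted p was 0.106 and 0.242 for *Alox15* and 0.299 and 0.320 for *Ggt5* (limma), and with 0.01 added instead of 0.1 it was 0.0597 and 0.0597. *Alox5*, the lipoxygenase partner of Alox5ap, was at 0.609 FPKM in unstimulated WT, 0.713 and 1.21 in WT with RANKL, 1.43 in unstimulated *Jmjd6*-/-, and 2.73 and 2.60 FPKM in *Jmjd6*-/- with RANKL, and its ratio under RANKL of 1.42 (SE 0.30, adjusted p = 0.0765 from limma) did not pass. In the added fit over 6 libraries *Alox5* was higher in *Jmjd6*-/- stroma, by 1.32 (SE 0.23, adjusted p = 0.0271 from limma), and *Alox15* (-1.51, adjusted p = 0.0169) and *Ptges* (-0.89, adjusted p = 0.0384) were lower, against 2.05% of all genes higher and 3.38% lower. All 3 calls were lost without *Jmjd6*-/- RANKL replicate 1 (adjusted p = 0.160, 0.0997 and 0.130 from limma, in that order) or replicate 2 (0.156, 0.107 and 0.232), and that of *Ptges* also without WT RANKL replicate 1 (0.0568).

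Of 20 other tuft-associated genes 18 were tested, and 4 rose with RANKL and none fell, against 10.5% and 4.11% of all genes. *Spib*, an Ets factor gene, was at 7.95 FPKM in unstimulated WT, 67.8 and 48.0 in WT with RANKL, 7.47 in unstimulated *Jmjd6*-/-, and 58.3 and 57.2 FPKM in *Jmjd6*-/- with RANKL, a log2 difference of 2.88 (SE 0.14, adjusted p = 7.30e-05 from limma). *Gfi1b*, a transcriptional repressor gene, rose by 2.17, and *Vil1*, encoding villin of the brush border, by 1.94, the latter not passing without *Jmjd6*-/- RANKL replicate 2 (adjusted p = 0.0575 from limma). *Pou2af3*, a coactivator gene of Pou2f3 listed as *Gm684*, was at 3.79 FPKM in unstimulated WT, 9.09 and 8.60 in WT with RANKL, 5.66 in unstimulated *Jmjd6*-/-, and 15.3 and 13.7 FPKM in *Jmjd6*-/- with RANKL, a log2 difference of 1.27 (SE 0.11, adjusted p = 0.000756 from limma). None of the 18 passed between genotypes under RANKL, with a median log2 ratio of 0.41. In the added fit over 6 libraries *Pou2af3* was higher in *Jmjd6*-/- stroma, by 0.66 (SE 0.10, adjusted p = 0.0200 from limma), as was the other coactivator gene *Pou2af2*, listed as *1810046K07Rik*, by 1.27 (SE 0.26, adjusted p = 0.0430 from limma), which makes 2 of 18 higher against 2.05% of all genes. Both lost the call without *Jmjd6*-/- RANKL replicate 1 (adjusted p = 0.163 for *Pou2af3* and 0.248) or replicate 2 (0.132 and 0.153), and *Pou2af2* also without WT RANKL replicate 2 (0.0554).

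IL-25 from tuft cells acts on lymphoid cells that release IL-13, and 11 genes of this circuit were tested. *Il13* was at 0.115 FPKM in unstimulated WT, 3.90 and 4.50 in WT with RANKL, 0.0746 in unstimulated *Jmjd6*-/-, and 3.55 and 2.99 FPKM in *Jmjd6*-/- with RANKL, a log2 difference of 4.29 (SE 0.19, adjusted p = 5.95e-05 from limma). *Il13ra2*, a decoy receptor gene, rose by 2.35 and *Il4ra*, a receptor chain gene, by 0.65, and the alarmin gene *Il33* fell by 0.46. Without *Jmjd6*-/- RANKL replicate 1 the adjusted p from limma was 0.0826 for *Il13ra2* and 0.122 for *Il33*, and without replicate 2 it was 0.174 for *Il33*. With 1 added instead of 0.1 it was 0.0780 and 0.0534. These 3 higher and 1 lower of 11 stand against 10.5% and 4.11% of all genes. None of the 11 passed between genotypes under RANKL. In the added fit *Tslp*, an alarmin gene, was lower in *Jmjd6*-/- stroma, with a 95% interval of -1.50 to -0.50 on the log2 scale (adjusted p = 0.0465 from limma), against 3.38% of all genes, a call lost without any 1 of the 4 RANKL libraries (adjusted p from 0.0542 to 0.231).

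**Figure D4:**
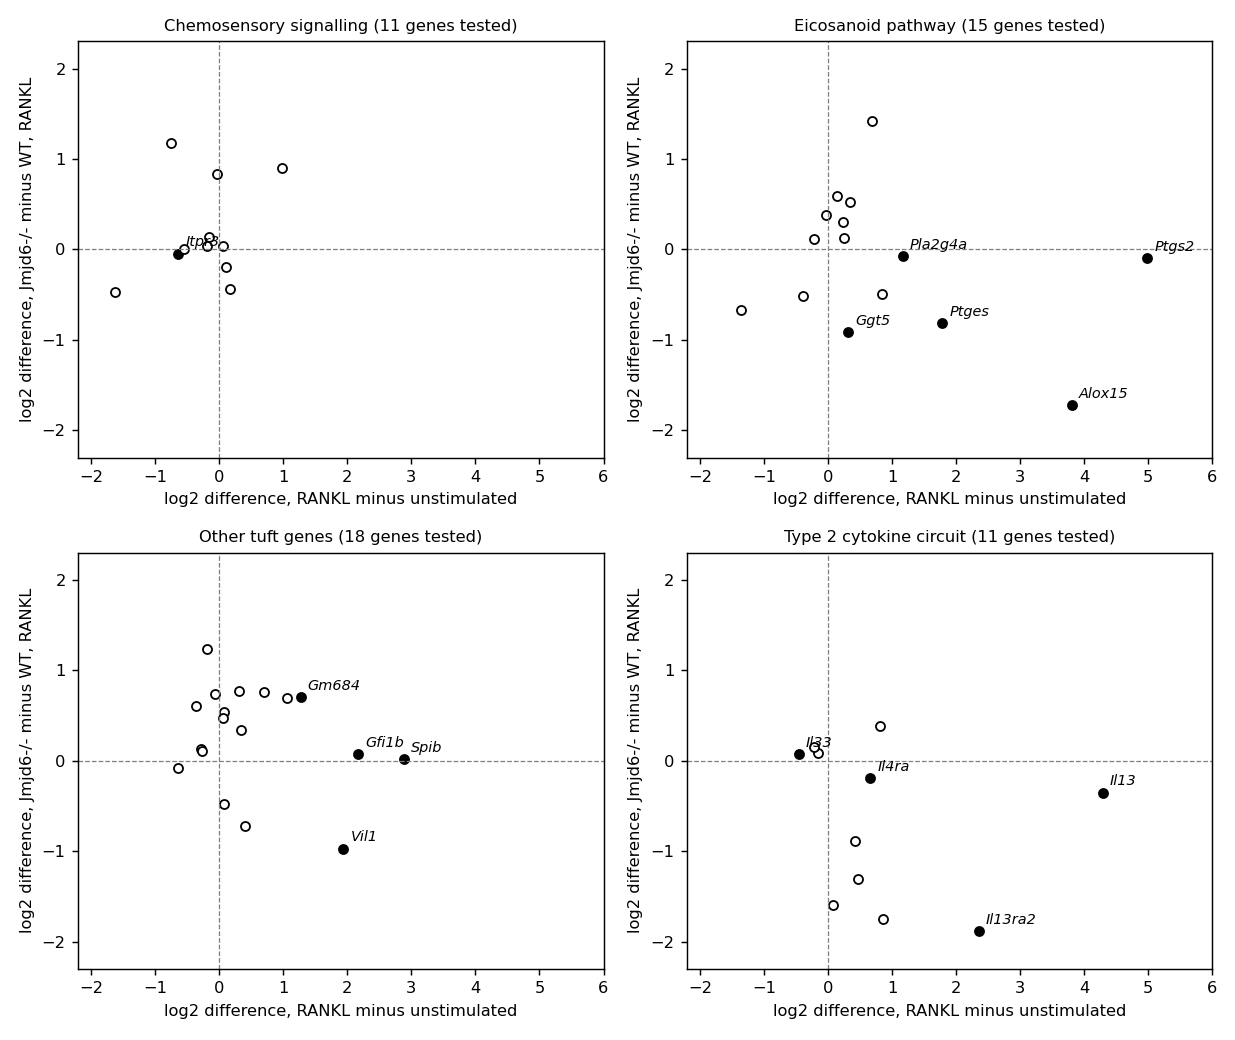
Log2 difference with RANKL (x axis) against log2 difference between Jmjd6-/- and WT, both with RANKL (y axis), both on the log2(FPKM + 0.1) scale from limma, for the tested genes of 4 lists, with genes that passed in either comparison filled and named (Gm684 is Pou2af3). Ptgs2 (4.99) and Il13 (4.29) lie farthest to the right.

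Several members are also expressed by other cells, whose markers were read in the same libraries. The 8 mast cell markers summed to 5.66 FPKM in unstimulated WT, 26.7 and 22.8 in WT with RANKL, 3.05 in unstimulated *Jmjd6*-/-, and 8.30 and 6.36 FPKM in *Jmjd6*-/- with RANKL. *Kit* alone was at 4.55 and 4.11 FPKM in WT and 4.86 and 3.81 FPKM in *Jmjd6*-/- with RANKL. *Cpa3*, *Fcer1a*, *Ms4a2*, *Tpsb2*, *Cma1* and *Mcpt4* were each at most 0.127 FPKM in stimulated *Jmjd6*-/- libraries. The sums there thus rest on *Kit* and *Hdc*. Under RANKL *Cma1*, *Mcpt4* and *Hdc* of the 6 tested were lower in *Jmjd6*-/- stroma, *Hdc* rose with RANKL, and *Cma1* is listed at 0 in all 3 *Jmjd6*-/- libraries. Of all genes 1.82% were lower between genotypes and 10.5% rose with RANKL. The genotype call of *Mcpt4* was lost with 1 added (adjusted p = 0.0692 from limma) or 0.01 added (0.0649). In the added fit *Cpa3*, *Tpsb2*, *Cma1* and *Mcpt4* were lower, against 3.38% of all genes, and each call was lost without *Jmjd6*-/- RANKL replicate 1 or 2 (adjusted p from 0.0735 to 0.165), that of *Tpsb2* also without WT RANKL replicate 1 (0.0566). Mast cells express *Alox5ap* and *Ltc4s*, of which the former lay lower and the latter higher in *Jmjd6*-/- than in WT RANKL libraries, and the part of mast cells in either was not tested. The 6 granulocyte markers summed to 0.203 FPKM in unstimulated WT, 9.87 and 13.2 in WT with RANKL, 0.318 in unstimulated *Jmjd6*-/-, and 2.39 and 1.99 FPKM in *Jmjd6*-/- with RANKL. *Mpo*, *Ngp* and *Prg2* of the 5 tested rose with RANKL and were lower in *Jmjd6*-/- stroma under RANKL, and their part in the members' levels was not tested. Without *Jmjd6*-/- RANKL replicate 2 the genotype call was lost for *Mpo* (adjusted p = 0.0503 from limma), *Ngp* (0.0731) and *Prg2* (0.160), and without replicate 1 for *Prg2* (0.0821). The RANKL call of *Mpo* was lost without any of WT RANKL replicate 1 or 2 or *Jmjd6*-/- RANKL replicate 1 or 2 (adjusted p from 0.0565 to 0.0739), and that of *Ngp* without WT RANKL replicate 1 (0.0503) or *Jmjd6*-/- RANKL replicate 1 (0.0800). In the added fit *Prg2* was lower in *Jmjd6*-/- stroma, a call lost without *Jmjd6*-/- RANKL replicate 2 (adjusted p = 0.0597).

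All 8 macrophage markers were above 0 in each library and summed to 432 FPKM in unstimulated WT, 301 and 490 in WT with RANKL, 412 in unstimulated *Jmjd6*-/-, and 334 and 347 FPKM in *Jmjd6*-/- with RANKL. *Csf1r*, *Adgre1* and *Mertk* fell with RANKL, as did *Ptprc* of 6 general haematopoietic markers, against 4.11% of all genes. These 6 summed to 62.3 FPKM in unstimulated WT and 50.7 and 73.2 in WT with RANKL. In *Jmjd6*-/- stroma they summed to 60.2 FPKM unstimulated and 48.9 and 50.6 with RANKL. All 4 RANKL libraries lay below both unstimulated ones in 3 of 8 macrophage and 4 of 6 haematopoietic markers, against 18.5% of all genes. They lay above in 1 marker of each list, against 18.9%. Without *Jmjd6*-/- RANKL replicate 1 or 2 the adjusted p from limma was 0.125 and 0.0797 for *Csf1r* and 0.0890 and 0.0898 for *Mertk*. None of these passed between genotypes under RANKL. *Plcb2* and *Alox5ap* are expressed by such cells, whose part was not tested.

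The 6 mesenchymal markers summed to 443 FPKM in unstimulated WT, 434 and 399 in WT with RANKL, 206 in unstimulated *Jmjd6*-/-, and 217 and 212 FPKM in *Jmjd6*-/- with RANKL. None changed with RANKL by the test, *Col3a1* and *Dpt* were lower in *Jmjd6*-/- stroma under RANKL, against 1.82% of all genes, and 4 of 6 (*Col1a1*, *Col3a1*, *Dpt* and *Lum*) were lower in the added fit over both conditions, in which *Avil* was higher, against 3.38% of all genes. There *Lum* lost its call without *Jmjd6*-/- RANKL replicate 1 (adjusted p = 0.0517 from limma) or replicate 2 (0.0529), and *Col1a1* without replicate 1 (0.0779). Without *Jmjd6*-/- RANKL replicate 1 or 2 the adjusted p of *Col3a1* under RANKL was 0.119 and 0.213, and without replicate 2 that of *Dpt* was 0.110 (limma). Of 9 medullary epithelial markers 7 rose with RANKL, against 10.5% of all genes, and none passed between genotypes under RANKL, while *Krt14* and *Cldn4* were higher in *Jmjd6*-/- stroma in the added fit, against 2.05% of all genes, calls lost without *Jmjd6*-/- RANKL replicate 1 (adjusted p = 0.0675 and 0.108 from limma) or replicate 2 (0.0954 and 0.135). They summed to 1744 FPKM in unstimulated WT, 1411 and 1893 in WT with RANKL, 2173 in unstimulated *Jmjd6*-/-, and 2312 and 2292 FPKM in *Jmjd6*-/- with RANKL. Of 7 neural and neuroendocrine markers *Insm1* rose with RANKL and none passed between genotypes under RANKL, with a sum of 32.5 FPKM in unstimulated WT, 62.0 and 48.2 in WT with RANKL, 14.2 in unstimulated *Jmjd6*-/-, and 46.9 and 51.0 FPKM in *Jmjd6*-/- with RANKL. The part of these cells in the levels of *Avil* and *Dclk1* was not tested.

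**Figure D5:**
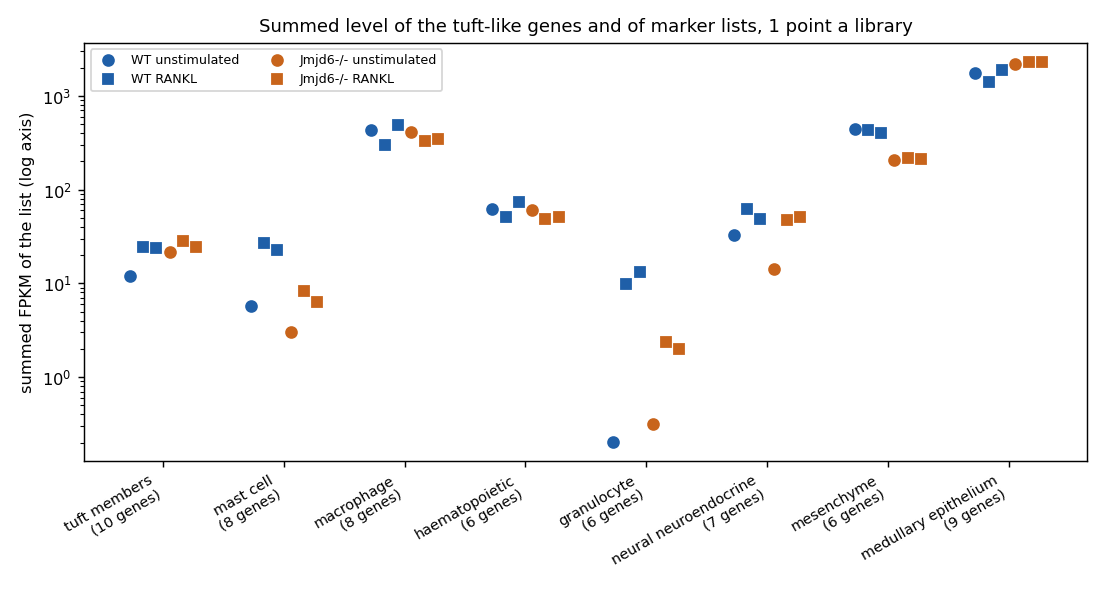
Summed FPKM of the 10 tuft-like genes and of the marker lists in each of the 6 libraries, on a log axis. The tuft-like sum is 12.1 FPKM in unstimulated WT and 21.7 to 28.0 FPKM elsewhere, and the mast cell and granulocyte sums are lower in stimulated Jmjd6-/- than in stimulated WT libraries.

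Likeness of profile was taken as the root mean square difference of log2 values over the 6 libraries, each gene centred on its mean, among genes averaging 1 FPKM or more. Closest to *Pou2f3* were *Emp2* (0.0949), *Arhgef3* (0.132), *Serpina3i* (0.147), *Mgll* (0.154) and *Aqp3* (0.157), where the median gene differed by 0.621. *Emp2*, a membrane protein gene, was at 12.4 FPKM in unstimulated WT, 27.1 and 26.3 in WT with RANKL, 23.6 in unstimulated *Jmjd6*-/-, and 40.4 and 38.4 FPKM in *Jmjd6*-/- with RANKL. Closest to *Trpm5* were *2810433D01Rik* (0.149), *Aph1c* (0.181), *Fry* (0.182), *Nlrx1* (0.191) and *Gpr126* (0.194), with a median of 0.398. Among the members, taken without that limit on level, the nearest pairs were *Dclk1* with *Alox5ap* (0.243), *Trpm5* with *Gnat3* (0.246) and *Avil* with *Plcb2* (0.263). The farthest pair was *Gnat3* with *Gng13* (1.21). All these profiles share the same 6 libraries and carry no test.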

How the data were processed

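Poly-A RNA of fetal thymus organ culture was sequenced in paired ends as 6 libraries. The authors aligned the reads to mm10 by TopHat2 2.0.10 and deposited FPKM per gene from Cufflinks 2.1.1, run with a stranded setting although no strand-keeping step is described. How reads were filtered is not given in the sources used here. Groups follow the sample titles. FPKM were not rescaled. Values were analysed as log2(FPKM + 0.1), which understates changes of low genes, with limma 3.58.1 (R 4.3.3, trended variance, two-sided) on 15894 genes averaging 0.1 FPKM or more, Benjamini-Hochberg adjusted at 0.05. The RANKL fit held genotype as a term. The genotype and response fits used 4 condition means. Scripts were tested on simulated data. Alternatives varied the constant, filter, trend, scaling, libraries and replicate block.

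Depth is an estimate from values under 0.15 FPKM and exon length less 150 bases. Fragment numbers and Poisson intervals built on it cover counting error only. Members and lists were chosen with earlier results of these data known. Named genes are the members, list genes that passed, and the 5 profiles nearest *Pou2f3* and *Trpm5*. *Alox5* and *Tas2r118* were picked with their values known.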

Additional observations from a re-analysis of the deposited data

How the results depend on the processing

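The members rest on few libraries and low levels, and calls near the threshold moved with the settings. The cause was not tested. With RANKL, 2 members rose as reported, 0 without a filter, 1 without a filter but leaving out genes at 0 throughout (added after the data were seen), 1 without a variance trend, and 0 to 2 as single RANKL libraries were removed. Of all genes, 788 rose without a filter and 1004 to 2176 with a library left out. Those that fell numbered 299 without a filter, 398 without a trend, 365 with a mean per condition and 166 to 1499 with a library left out. Between genotypes under RANKL, genes lower in Jmjd6-/- numbered 180 with 0.01 added, 1 without a filter, 0 without genes at 0 throughout, 172 at a mean of at least 1 FPKM and 82 to 1836 with a library left out, and genes higher 1, 0 (without genes at 0 throughout) and 22 to 2428, with 0 to 2 members higher. Over both conditions, 1 gene was higher and 3 lower without a filter, 29 to 712 and 59 to 814 with a library left out, and members higher numbered 0 without a filter, 2 without a trend and 0 to 2 with a library left out. For the difference in response, 93 genes were higher and 83 lower without a filter, 1 of them a member (*Gng13*), and 0 to 4 and 0 to 1 with a library left out. Where 1 library of a group remained, it was assumed to vary like the others.

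The labels do not state whether same-numbered libraries of the genotypes were prepared together. The correlation of replicate differences between genotypes was -0.08 over 12587 genes. It cannot decide this, since the wider spread of the WT pair could hide a small shared effect. With the replicate number as a block, 0 members and 315 genes that fell passed for RANKL, 1 member (*Avil*), 396 genes higher and 1081 lower passed between genotypes, and for the difference in response 27 genes higher, 67 lower and 1 member lower (*Gng13*, adjusted p = 0.00218 from limma) passed.

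Small log2 differences changed sign. For RANKL these were *Gnat3* at 0.012 with the replicate block, *Ltc4s* at -0.23 with the replicate block, *Trpm5* from -0.13 to 0.21 with a library left out and *Ltc4s* from -0.18 to 0.29 with a library left out. Between genotypes under RANKL they were *Dclk1* at -0.0033 with equal totals, *Dclk1* at -0.027 with median-ratio scaling and *Dclk1* from -0.21 to 0.23 with a library left out, and over both conditions *Dclk1* from -0.023 to 0.23 with a library left out. For the difference in response they were *Plcb2* at -0.0023 with equal totals, *Avil* at -0.0040 with median-ratio scaling, *Plcb2* at -0.011 with median-ratio scaling, *Dclk1* from -0.44 to 0.0018 with a library left out, *Avil* from -0.18 to 0.23 with a library left out, *Plcb2* from -0.056 to 0.10 with a library left out, *Gnat3* from -0.34 to 0.58 with a library left out, *Ltc4s* from -0.79 to 0.31 with a library left out and *Trpm5* from -0.69 to 0.10 with a library left out.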
